A study of Mus musculus with 10 samples.

Results

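Connexins and pannexins are the proteins of intercellular and membrane channels. The genes described here are 4 connexin genes, Gja1, Gjb2, Gjb5 and Gjb6, and the pannexin gene Panx1. They were chosen by name from the gene symbols of the deposited count table, which found all 5 among its 55414 genes. The tissue was the epithelial sheet of mouse gum (gingiva), lifted off after the protease Dispase had loosened it, and its polyadenylated RNA was sequenced. The 5 buccal libraries came from the side facing the cheek and the 5 palatal libraries from the side facing the palate, and all 10 were made the same way, per the labels. Mouse strain, genotype, age, number of animals and microbial status are not given for these libraries in the sources used here. The series' design text speaks of pooled germ-free and specific-pathogen-free samples, a comparison not analysed here.

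Connexin subunits assemble into a half-channel in the membrane of a cell, and the half-channels of neighbouring cells dock into a gap junction through which ions and small molecules pass. Pannexins form channels of similar shape that open to the outside and release ATP. In stratified epithelia Gja1 encodes the connexin found most widely across the layers, while Gjb2 and Gjb6 encode closely related connexins that can share a channel and are known for their roles in skin and inner ear. Gjb5 encodes a connexin expressed mainly in epidermis and placenta.

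Total counts per library ran from 25868777 to 37234192. Levels are given in CPM, read counts scaled to the library's size after TMM scaling, which corrects for differences in library composition. Of 14062 genes tested with edgeR's quasi-likelihood test, 5474 passed an adjusted p of 0.05, which is 38.9% (18.7% higher and 20.3% lower in palatal). Keratin genes of keratinocytes were abundant, with Krt5 at 4500 CPM in buccal and 4302 CPM in palatal libraries and Krt13 at 58477 and 34511 CPM. All 7 basal and all 8 suprabasal keratinocyte markers were tested, which needs only low counts. Because no label ties a library to its own animal, each p-value reflects the spread among these libraries, and that spread may be technical. In RNA from whole epithelium, fewer cells of a type and less RNA per cell cannot be told apart.

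The sequence just before the transcription start is shown for 3 of the genes: the neighbours Gjb2 and Gjb6, which lie next to each other on chromosome 14 in the RefSeq gene order of GRCm38.p6 and differed by unequal amounts between the sides, and Gja1, the connexin gene that did not pass the test. Each is the 250 bases before the RefSeq start, read 5′ to 3′ on the gene's strand, and capitals mark matches to the motifs named after them.
Gjb6 promoter (RefSeq, GRCm38.p6, chr14:57133612-57133861, strand -): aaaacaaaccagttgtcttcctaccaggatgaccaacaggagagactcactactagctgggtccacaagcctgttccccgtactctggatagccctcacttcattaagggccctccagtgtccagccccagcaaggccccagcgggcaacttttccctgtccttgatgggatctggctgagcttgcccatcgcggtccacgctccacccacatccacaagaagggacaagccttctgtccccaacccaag
Gjb2 promoter (RefSeq, GRCm38.p6, chr14:57104703-57104952, strand -): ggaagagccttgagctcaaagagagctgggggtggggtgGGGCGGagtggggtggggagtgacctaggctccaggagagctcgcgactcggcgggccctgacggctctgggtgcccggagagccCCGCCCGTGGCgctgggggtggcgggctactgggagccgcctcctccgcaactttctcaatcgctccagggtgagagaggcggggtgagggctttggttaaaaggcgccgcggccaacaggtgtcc
Gja1 promoter (RefSeq, GRCm38.p6, chr10:56377050-56377299, strand +): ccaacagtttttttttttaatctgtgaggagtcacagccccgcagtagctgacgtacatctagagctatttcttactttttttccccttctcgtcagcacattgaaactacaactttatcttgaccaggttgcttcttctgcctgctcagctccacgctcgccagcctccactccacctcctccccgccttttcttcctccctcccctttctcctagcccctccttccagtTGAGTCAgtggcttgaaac
Windows of this length were searched on either strand for TATAAA (the TATA box), GGGCGG (a GC box), TGANTCA (an AP-1 site), GCCNNNGGC (an AP-2 site) and CACGTG (an E-box). The Gjb2 window held GGGCGG at 211 and 126 bases before the start (shown at the latter on the opposite strand) and GCCNNNGGC at 124 bases before it, and these last matches overlap. The Gja1 window held TGANTCA at 19 bases before the start. The Gjb6 and Panx1 windows held none of the 5 motifs, and the Gjb5 window held TATAAA at 243 and GCCNNNGGC at 71 bases before the start. Among all 32851 RefSeq windows, 32.7% held GGGCGG, 13.7% GCCNNNGGC, 12.4% TATAAA, 6.75% TGANTCA and 6.02% CACGTG. The windows also differed in base composition, with 69.2% G and C and 18 CpG sites in Gjb2 against 56.8% and 5 in Gjb6, 50% and 6 in Gja1, 54.4% and 3 in Gjb5 and 59.6% and 17 in Panx1. The median over all windows was 52.4% and 6. A match is a description of these letters and was not tested as a binding site.

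Palatal epithelium carried more transcript of 4 of the 5 genes than buccal epithelium, and none passed the test in the other direction. The comparison asks whether connexin and pannexin expression depends on position in the gum, the subject of the series title. Gjb6 was higher by 1.86-fold, Gjb5 by 1.46-fold, Gjb2 by 1.23-fold and Panx1 by 1.22-fold, while Gja1 stood at a fold of 1.03 and did not pass. These 4 of 5 stand beside the 18.7% of all tested genes called higher in palatal. The 5 genes were chosen with earlier results of these data known, so their count is a description. Their median log2 fold change was 0.30, against 0.01 over all tested genes, and the median size of change among all genes called was 0.56.

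Gjb6 (ENSMUSG00000040055) had the largest difference of the 5. Its level was 82.3, 92.8, 92.6, 104.9 and 106.4 CPM in buccal libraries 1 to 5 and 169.5, 203.0, 158.9, 183.7 and 177.9 CPM in palatal libraries 1 to 5. The lowest palatal library lay well above the highest buccal one, so the sides did not overlap, a separation toward palatal that 13.6% of tested genes showed. The log2 fold change was 0.90 ± 0.08 (SE, n = 5 per side; edgeR adjusted p = 1.01e-06), with a 95% interval of 1.65-fold to 2.11-fold.

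Gjb2 (ENSMUSG00000046352) was far more abundant in reads and changed less. Its levels were 778.5, 898.3, 904.6, 997.3 and 1051 CPM in buccal libraries 1 to 5 and 1113, 1292, 1045, 1106 and 1136 CPM in palatal libraries 1 to 5. Buccal library 5 lay just above palatal library 3, so the sides touched at that point, and the other palatal libraries were above all buccal ones. The log2 fold change was 0.30 ± 0.09 (edgeR adjusted p = 0.0162), with a 95% interval of 0.11 to 0.49. Without library number 2 on both sides it was 0.24 and did not pass (edgeR adjusted p = 0.0726), whereas it passed with any single library left out (highest adjusted p = 0.0437).

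Gja1 (ENSMUSG00000050953), whose protein is the most widespread connexin of mammalian tissues, had the most reads of the family. It read 1633, 2086, 1914, 1775 and 1885 CPM in buccal libraries 1 to 5 and 1866, 2038, 1854, 1785 and 2042 CPM in palatal libraries 1 to 5. The palatal values fell inside the buccal range, and buccal libraries 1 and 2 were the lowest and the highest of all 10. The log2 fold change was 0.04 ± 0.08 (edgeR adjusted p = 0.708), and its 95% interval ran from 0.913-fold to 1.17-fold. Its sign depended on scaling, at -0.000767 with library totals alone.

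Gjb5 (ENSMUSG00000042357), a connexin gene of epidermis, was the least abundant of the 4 connexin genes. Its level was 14.93, 11.82, 13.15, 13.96 and 12.65 CPM in buccal libraries 1 to 5 and 18.91, 20.26, 18.82, 20.2 and 19.2 CPM in palatal libraries 1 to 5. All palatal libraries were above all buccal ones, as for 13.6% of tested genes, and the palatal values lay close together. The log2 fold change was 0.55 ± 0.07 (edgeR adjusted p = 3.58e-05), with a 95% interval of 1.31-fold to 1.64-fold.

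Panx1 (ENSMUSG00000031934), which encodes the pannexin that releases ATP from cells, was higher in palatal libraries by a small margin. It read 10.04, 9.688, 8.732, 9.156 and 9.718 CPM in buccal libraries 1 to 5 and 13.21, 11.17, 10.97, 10.68 and 11.84 CPM in palatal libraries 1 to 5. The sides did not overlap, a separation toward palatal shown by 13.6% of tested genes, and palatal library 1 stood highest. The log2 fold change was 0.29 ± 0.08 (edgeR adjusted p = 0.0111), with a 95% interval of 0.12 to 0.46.

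**Figure D1:**
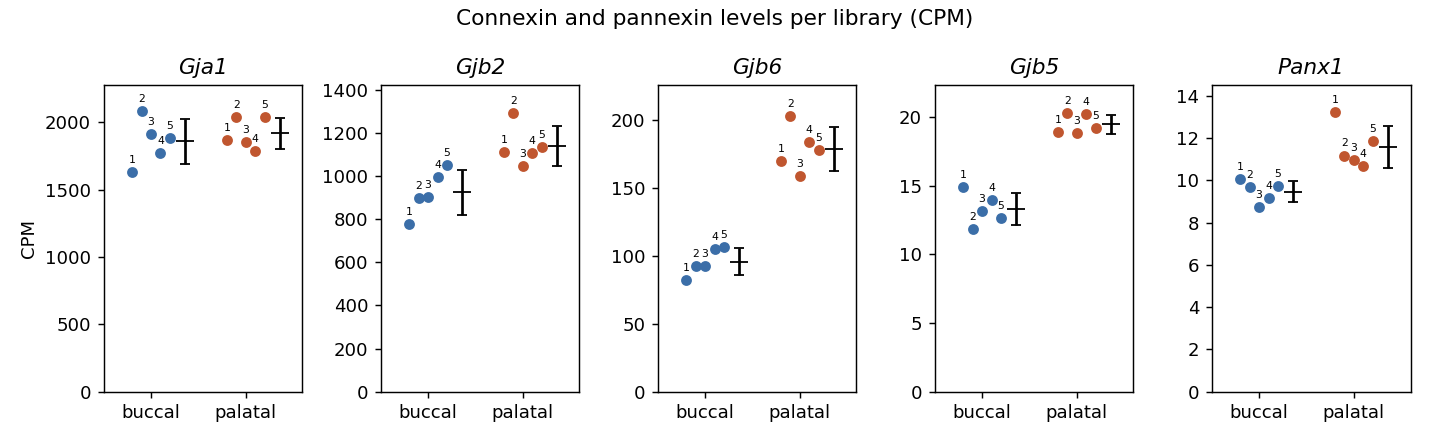
Level of each gene in every library (CPM after TMM scaling, linear axes from 0; numbers are library numbers; bars are mean ± SD of 5 libraries). The sides separate for Gjb6, Gjb5 and Panx1, touch for Gjb2 (1051 CPM in buccal library 5 against 1045 CPM in palatal library 3) and overlap for Gja1. A separation toward palatal was shown by 13.6% of all tested genes.

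The ratio of Gjb6 to Gjb2 counts within a library needs neither scaling nor gene length to be compared between the sides. It was 0.106, 0.103, 0.102, 0.105 and 0.101 in buccal libraries 1 to 5 and 0.152, 0.157, 0.152, 0.166 and 0.157 in palatal libraries 1 to 5. Gjb6 therefore rose more than its neighbour Gjb2, by 0.60 on the log2 scale (exact two-sided permutation p = 0.00794, the smallest possible with 5 against 5; 0.0159 adjusted over the 2 ratios tested). The ratio varied little within a side, with an SD of 0.03 in buccal and 0.05 in palatal libraries on the log2 scale.

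The ratio of Gja1 to Gjb2 counts went the other way. It was 2.1, 2.32, 2.12, 1.78 and 1.79 in buccal libraries 1 to 5 and 1.68, 1.58, 1.77, 1.61 and 1.8 in palatal libraries 1 to 5. The sides met between 1.77 and 1.8, where buccal libraries 4 and 5 lay beside palatal libraries 3 and 5. The difference was -0.25 on the log2 scale (exact two-sided permutation p = 0.0238, also 0.0238 adjusted over the 2 ratios). It did not pass without library number 2 on both sides (-0.18, exact permutation p = 0.0857) or without palatal library 1, 2 or 4 (exact permutation p = 0.0556 each).

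**Figure D2:**
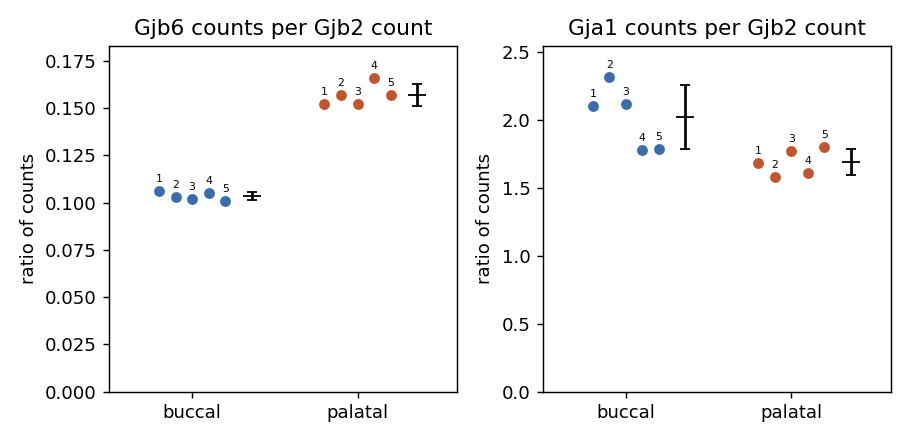
Gjb6 and Gja1 counts per Gjb2 count in every library (linear axes from 0; numbers are library numbers; bars are mean ± SD of 5 libraries). Gjb6 per Gjb2 lies between 0.101 and 0.106 in buccal and between 0.152 and 0.166 in palatal libraries, while Gja1 per Gjb2 is lower in palatal libraries with the sides meeting near 1.8.

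Levels of different genes were compared per kilobase of the longest consensus coding transcript in GENCODE M21. On this scale Gja1 was highest, at 584 ± 52.8 CPM per kb (SD, n = 5) on the buccal and 602 ± 36.6 on the palatal side. Gjb2 followed at 385 ± 43.4 and 473 ± 38.4, then Gjb6 at 45.5 ± 4.73 and 84.8 ± 7.86 CPM per kb. Gjb5 stood at 7.73 ± 0.695 and 11.3 ± 0.408 and Panx1 at 1.65 ± 0.0905 and 2.02 ± 0.176. The order of these 5 genes was the same on both sides, and the ranges of neighbours in it did not overlap within either side. The order of Gja1 and Gjb2 depends on the length used: the exons of all annotated Gja1 transcripts together span 10257 bases, against 3182 for the coding transcript, and with that length Gja1 falls to 181 CPM per kb in buccal libraries, below Gjb2.

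The share of Gja1 among the connexin transcripts was lower in palatal and that of Gjb6 higher, while the level of Gja1 itself did not pass the test. Of the summed CPM per kb of 20 connexin genes, Gja1 took 51.7% to 58.7% in buccal and 47.5% to 50.7% in palatal libraries. Gjb6 took 3.94% to 4.62% in buccal and 6.54% to 7.41% in palatal libraries, and neither gene's shares overlapped between the sides. Gjb2 took 33.4% to 38.5% and 37.3% to 39.9%, which overlapped, with means of 36.01% and 38.50%. Gjb5 took 0.615% to 0.932% and 0.874% to 0.997%. The summed level was 930.8 to 1134 CPM per kb in buccal and 1155 to 1347 in palatal libraries. These shares are descriptions with no test. With the all-exon lengths the mean Gja1 share is 27.8% in buccal and 23.6% in palatal libraries. On those lengths Gjb2 has the largest share, with means of 58.7% and 59.6% and ranges that overlap. The mean Gjb6 share is then 5.47% in buccal and 8.41% in palatal libraries.

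**Figure D3:**
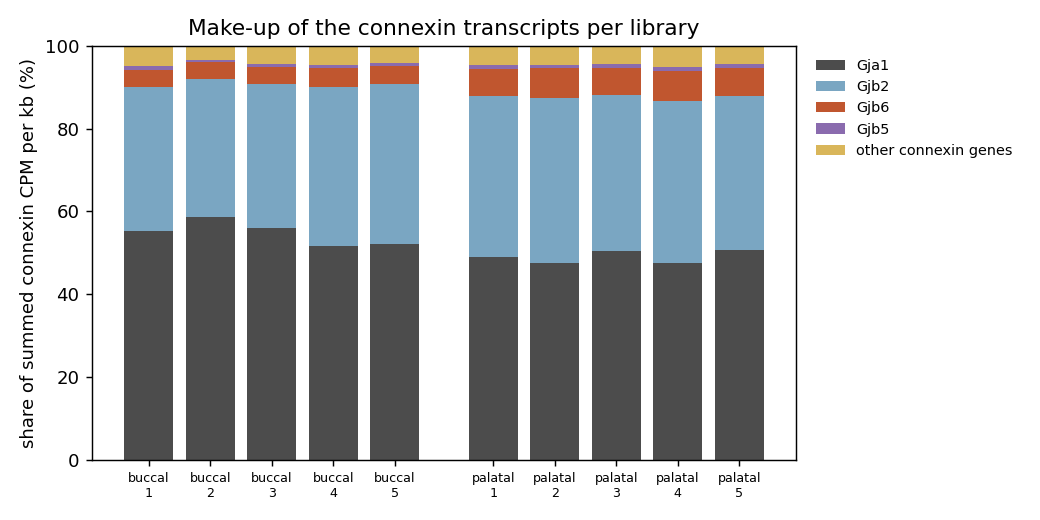
Share of each connexin gene in the summed connexin CPM per kb of each library (percent, stacked bars from 0; the top band sums the other connexin genes). The Gjb6 band is wider in all 5 palatal libraries (6.54% to 7.41%) than in the buccal ones (3.94% to 4.62%), and the Gja1 band is narrower.

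Among all 20 connexin genes, 7 passed the filter on low counts, and of the 3 pannexin genes 1 did. Of these 8 genes, 6 were higher and 1 was lower in palatal by edgeR's test, with Gja1 not called. Over all tested genes 18.7% were called higher and 20.3% lower.

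The connexin and pannexin genes that did not pass the filter were at trace levels. Gjb1, a connexin of liver and glia, had 66 counts over the buccal and 33 over the palatal libraries, and Gjd3 had 20 and 2. Gja4, an endothelial connexin, had 12 and 10, and Gja3, a lens connexin and the neighbour of Gjb2, had 37 and 41. Gja10, Gjd2, Gjd4 and Panx3 had 0 counts in every library, which allows up to 3 counts a side, or 0.0189 CPM in buccal and 0.0200 CPM in palatal samples. The limit accounts for counting error alone, and without molecular identifiers reads are not separate molecules.

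Genes lying directly beside some of the 5 on their chromosomes, in RefSeq order, were compared in the same fit. Cryl1, a crystallin-like enzyme gene on the other side of Gjb6, was higher in palatal by 0.78 ± 0.11 log2 units (edgeR adjusted p = 5.76e-05), with means of 24.8 ± 4.11 and 42.7 ± 4.46 CPM. Hephl1, a copper oxidase gene beside Panx1, had means of 0.131 ± 0.0456 CPM (buccal) and 3.31 ± 0.486 CPM (palatal), so it passed the filter on low counts through the palatal side alone. The neighbours of Gja1, Msl3l2 and Hsf2, did not pass (0.17 ± 0.19 and -0.15 ± 0.13; edgeR adjusted p = 0.499 and 0.400).

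By the pattern over the 10 libraries, the genes nearest to each of the 5 were sought among tested genes with a mean of at least 5 CPM. Nearness was the root mean square difference of mean-centred log2 CPM. Because this measure includes the difference between the sides, a nearest gene has a similar fold change by the way it was chosen. Gjb6 was nearest to Fbxo45, Fbxo32 and the desmosomal cadherin gene Dsg1a (differences of 0.0621, 0.0774 and 0.0862 log2 units). Dsg1a itself was higher in palatal by 0.98 ± 0.08. Gja1 was nearest to Pdik1l, Cog5 and Ifnar1 (0.0296, 0.0439 and 0.0473), of which none passed edgeR's test. Gjb2 was nearest to Rbsn, Pip5k1a and Sort1 (0.0492, 0.0520 and 0.0577). Gjb5 was nearest to Ccdc9, Itgb5 and Pttg1ip (0.0708, 0.0753 and 0.0781), and the genes near Panx1 included Slc12a7 and Plcg1 (0.0555 and 0.0737). None of the 5 genes was among the nearest of another: the smallest difference between a pair of them was 0.168, between Gjb2 and Panx1, and the largest 0.445, between Gja1 and Gjb6.

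Genes that act on connexin channels were mostly not past the test. Of 24 listed partners and regulators 23 were tested, of which 4 rose and 2 fell in palatal libraries. The list's median was -0.04 on the log2 scale, against 0.01 over all tested genes. These 6 called of 23 stand beside the 38.9% called over all genes. The scaffold gene Tjp1, whose protein binds the tail of the Gja1 connexin, stood at 0.16 ± 0.10 (edgeR adjusted p = 0.251). Among kinases, Csnk1e, a casein kinase gene, rose by 0.74 ± 0.10 and Prkcd by 0.18 ± 0.06, while Mapk3 fell by 0.24 and Prkce by 0.36 (edgeR adjusted p = 5.19e-05, 0.0321, 0.0176 and 0.0208). The ubiquitin ligase genes Wwp1 and Nedd4 rose by 0.25 ± 0.06 and 0.17 ± 0.06 (edgeR adjusted p = 0.00622 and 0.0421). The call was lost for Prkcd without any one of buccal libraries 2, 3 or 4 or palatal libraries 1 or 3 (adjusted p from 0.0561 to 0.0759), and for Prkce without buccal library 2 (0.0521). It was lost for Mapk3 without buccal library 4 (0.05), and for Nedd4 without any one of buccal libraries 1, 4 or 5 or palatal libraries 1, 3 or 5 (0.0606 to 0.105). Prkcd and Nedd4 also lost it with library totals alone (0.132 and 0.139) and without a filter on low counts (0.0803 and 0.13). Without number 2 on both sides Prkcd and Prkce lost it (0.0702 and 0.0634), and with the replicate number as a block Nedd4 did (0.0669).

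ATP released through pannexin channels acts on P2X and P2Y receptors and is broken down outside the cell to adenosine, and some genes of that pathway were lower in palatal, while 9 of those tested did not pass. Of 30 listed genes 21 were tested, of which 10 fell and 2 rose by edgeR, beside 20.3% lower and 18.7% higher over all tested genes. The median was -0.35 on the log2 scale, against 0.01 over all tested genes. Ada, which encodes the adenosine-degrading enzyme adenosine deaminase, had means of 7103 ± 2114 CPM in buccal and 1239 ± 391 CPM in palatal libraries and fell by 2.52 on the log2 scale (edgeR adjusted p = 3.41e-05). Nt5e, whose product makes adenosine from AMP, fell by 0.91 ± 0.11, from 76.0 ± 9.23 to 40.4 ± 6.77 CPM. The nucleotide receptor gene P2ry4 fell by 1.47 ± 0.19, from 28.9 ± 6.83 to 10.4 ± 2.73 CPM. For each of Ada, Nt5e and P2ry4 all buccal libraries lay above all palatal ones, as for 14.7% of tested genes (28.3% separated in either direction). The receptor genes P2ry14, P2rx2 and P2rx5 fell by 1.63, 1.95 and 1.43 at buccal levels of 0.981, 0.704 and 1.11 CPM. P2ry6 and Entpd1 also fell, at buccal levels of 0.943 and 0.853 CPM. These levels are low enough that such genes could pass the filter through the buccal side alone. All of them enter the count of 10 that fell and the median. The genes that rose, named after their values were seen, were the receptor gene P2ry1 (0.32 ± 0.07) and the phosphatase gene Alpl (1.06 ± 0.23). Receptor genes with other values were P2rx4, P2rx7 and P2ry2 at 0.09, 0.01 and 0.01 (edgeR adjusted p = 0.435, 0.923 and 0.926), also named after their values were seen. When a gene needed at least 1 CPM in 5 libraries, 5 were lower and 1 higher.

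Among markers of cells other than keratinocytes, the leukocyte list fell as a whole. The counts in these marker lists stand beside 18.7% called higher and 20.3% called lower over all tested genes. All 7 leukocyte markers fell in palatal libraries. The summed level of the 7 was 128.4 to 206.3 CPM in buccal and 42.7 to 60.3 CPM in palatal libraries. Cd2, with means of 1.12 CPM in buccal and 0.182 CPM in palatal libraries, could pass the low-count filter through the buccal side alone. Its call then follows from that side, and it enters the count of 7. Cd3e was also low, at 1.11 and 0.451 CPM. Of 6 endothelial markers 2 were tested and 1 fell, at a summed 4.60 to 8.31 and 3.22 to 8.01 CPM. Of 6 fibroblast markers 4 were tested and 1 rose, with a sum of 6.79 to 12.9 and 70.1 to 89.1 CPM that was mostly Dcn. Of 6 mural and smooth muscle markers 3 were tested and 1 fell, while of 6 melanocyte markers 1 was tested and of 6 Schwann cell markers 2, with 0 called by edgeR in either list. Among keratinocyte layers, 4 of 7 basal markers rose and 0 fell, and of 8 suprabasal markers 4 rose and 4 fell. Basal keratin Krt14 rose by 0.96 ± 0.13 while Krt5 stood at -0.06 ± 0.09 (edgeR adjusted p = 0.591). The part of cell and layer make-up in the connexin and nucleotide signalling results was not tested.

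**Figure D4:**
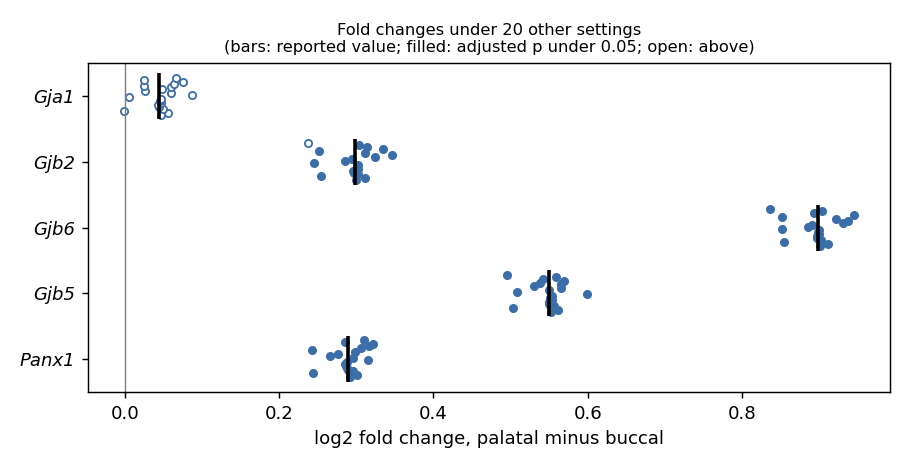
Log2 fold change, palatal minus buccal, of the 5 genes under 20 other settings (points; filled where the adjusted p is under 0.05) and as reported (bars). Gjb6, Gjb5 and Panx1 keep filled points throughout, Gjb2 has 1 open point at 0.24, and all Gja1 points are open between -0.000767 and 0.09.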

How the data were processed

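Raw counts per gene and library were made by the authors and deposited, per the file headers, along with the authors' DESeq2-normalized values, a signal in which each library's counts share 1 divisor. Per the submitters' processing notes, the tools included DESeq2 1.36.0, HTSeq 2.01, cutadapt 2.10 and TopHat2 2.1.1, and the build GRCm39. The strand setting of the counting is not given in the sources used here. Of 55414 genes 6250 were blank and left out, and 0 columns belong to other samples. Genes were kept by filterByExpr (minimum count 10), libraries scaled by TMM, and the sides compared with edgeR's two-sided quasi-likelihood test (palatal minus buccal) and Benjamini-Hochberg adjustment over 14062 genes (edgeR 4.0.16, limma 3.58.1, DESeq2 1.42.0, R 4.3.3). The SE of a log2 fold change was derived from its F statistic. Likeness used log2 CPM with prior count 2. In simulated data modelled on this comparison (13913 genes tested, 200 changed), edgeR recovered 79.1% of 1.5-fold, 97.0% of 2-fold and 100% of 4-fold changes, with 11 false calls. Far fewer genes were changed there than were called here. No change under 1.5-fold was simulated, so these figures do not cover changes as small as those of Gjb5, Gjb2 and Panx1. Replicates of a side differed by more than sampling noise (chi-square over its degrees of freedom, 8.35 to 64.9).

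The 5 genes and the gene lists were chosen with earlier results of these data known. The rule for named genes took all tested connexins and pannexins, up to 6 called genes with the smallest p of each list, the 3 most similar genes and the nearest neighbours, and some of these are not reported here. Lengths and promoters are of GRCm38, not the files' build. Alternatives were other scalings, filters and tests (DESeq2, limma-voom, limma-trend on log2 of the deposited values plus 1), the replicate number as a block, and leaving out libraries.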

Additional observations from a re-analysis of the deposited data

How the results depend on the processing

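Gjb6, Gjb5 and Panx1 kept their direction and stayed past the threshold under all 20 other settings, with log2 fold changes of 0.84 to 0.95, 0.50 to 0.60 and 0.24 to 0.32. Gjb2 did so in all but the fit without library number 2 on both sides (0.24, adjusted p = 0.0726), and Gja1 took the opposite sign with library totals alone (-0.000767, adjusted p = 0.995). With a library left out, the Gja1 to Gjb2 difference ran from -0.30 to -0.20 (exact permutation p up to 0.0556), and without number 2 on both sides it was -0.18 (exact permutation p = 0.0857). The Gjb6 to Gjb2 difference stayed at 0.58 to 0.61. Between 5 and 8 connexin and pannexin genes were called, against 7, and between 4902 and 5940 genes in all. The cause of these shifts was not tested. With the replicate number as a replicate block, 5518 genes and 6 connexin and pannexin genes were called. The libraries share only a number: same-numbered libraries correlated at -0.023 to 0.328 in their deviations from the side means, and 5 of 10 libraries correlated best with their own number. With library totals alone 2 partner and regulator genes rose and 5 fell, and without a filter on low counts 2 rose; under the block 4 nucleotide signalling genes rose. The shares of connexin CPM per kb taken by Gja1, Gjb2 and Gjb6 depend on the transcript length, an alternative added after seeing the data. Depth limits Gjb1 and Gjd3, which rest on few counts.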

Other observations

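Other large-pore channel genes and genes of calcium release were examined in the same fit, in which 38.9% of all tested genes were called. Of 11 listed genes of the CALHM and LRRC8 channels 7 were tested, and 3 were higher and 1 lower in palatal by edgeR. Calhm5, one of the 3, had 6 counts over all buccal libraries and 200 over all palatal ones, with a palatal mean of 1.34 ± 0.222 CPM (SD, n = 5). It passed the filter on low counts through the palatal side alone, so its call follows from that side and no fold is given. Of the subunits of the volume-regulated anion channel, Lrrc8d rose by 0.57 ± 0.07 and Lrrc8b fell by 0.47, while Lrrc8a, which every such channel needs, stood at -0.19 ± 0.08 (edgeR adjusted p = 0.0743). Calhm2 passed narrowly (0.30 ± 0.11, edgeR adjusted p = 0.0498), and the call was lost without any one of buccal libraries 2 to 5 or palatal libraries 1 to 3 (adjusted p from 0.0743 to 0.122).

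The inositol trisphosphate receptors, which release calcium from stores and whose ligand can cross gap junctions, split by isoform. Itpr3 rose by 0.88 ± 0.07 on the log2 scale, with means of 172 ± 10.5 CPM (buccal) and 316 ± 28.8 CPM (palatal). Itpr2 fell by 1.04, with means of 170 ± 16.2 and 82.8 ± 6.01 CPM, and Itpr1 fell by 0.52 (edgeR adjusted p = 9.13e-08 and 0.00213). Of 12 listed calcium store and entry genes 11 were tested, and 3 were higher and 2 lower by edgeR, a share called that lies near that over all genes. Stim2, a store calcium sensor gene, rose by 0.54 ± 0.07 and Plcg1, a phospholipase C gene, by 0.28 ± 0.07.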
